A study of Mus musculus with 11 samples.

Results

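The 8 libraries of frontal lobe from E18.5 mouse embryos, 4 from Nsun2-/- and 4 from WT embryos, were taken by their stage label out of the 11 libraries of the series, and the genotypes were compared on how the tRNA counts were divided among amino acids, anticodons and gene copies. The other 3 libraries, 2 Nsun2-/- and 1 WT at E13.5, served to place the E18.5 values. All embryos carried the C57BL/6 strain label, and the labels name no treatment. Nsun2-/- mice lack NSUN2 from conception rather than in a chosen cell type, and the methods name more than 1 Nsun2 line without saying which gave these libraries. The methods describe the replicates as independent biological replicates, and the labels give no litter, sex or batch. Only tRNA genes were counted, so neither the loss of Nsun2 nor the labelled brain region could be checked against marker genes.

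Transfer RNAs carry amino acids to the ribosome and read codons with the 3 bases of their anticodon. An amino acid can be served by several anticodons, whose tRNAs are called isoacceptors, and most isoacceptors are encoded by several gene copies spread over the genome. NSUN2 places 5-methylcytosine in many tRNAs, mostly at the junction of the variable loop, and tRNAs without this mark are cut more readily near the anticodon by the ribonuclease angiogenin. In the brain, NSUN2 is known for its part in the growth and differentiation of neural progenitors. The use of such a pool can be read at several levels, namely the sum over all genes of an amino acid, the share of an anticodon within its amino acid, and the share of a gene copy within its isoacceptor.

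The libraries held size-selected small RNA whose amino acids had been removed before adapters were ligated, and each value is a raw count of reads on a tRNA gene, in which whole tRNAs and fragments cannot be told apart. Totals lay between 4011 and 5027 counts in the Nsun2-/- libraries and between 5387 and 5924 in the WT libraries, so that every Nsun2-/- library was shallower than every WT library. Such totals are small, and the sources used here do not say whether identical reads were merged before counting, so a count may stand for a distinct read sequence. Of the 433 tRNA genes listed, 305 had a count at E18.5 and 198 had counts in all 8 libraries. These genes covered 51 of 53 isoacceptors and 22 of 23 amino acid labels. By the methods, only reads with a single place in the genome were kept, so gene copies with identical sequences lost reads, and copies that differ at few bases share most of their sequence. Between Nsun2-/- replicates 1 and 2 the counts of 148 genes agreed within sampling noise (chi-square test, p = 0.933), as did those of replicates 2 and 3 (p = 0.858), while WT replicates 2 and 4 differed by more (p = 4.77e-07). In the same test, Nsun2-/- replicate 4 differed beyond sampling noise from replicates 1 (chi-square 210 over 146 genes) and 2 (182.5 over 139 genes). WT replicates 2 and 3 did so too (267.9 over 168 genes), and WT replicate 1 differed by less from replicates 2 and 3. Nsun2-/- replicate 3 did not differ so from replicates 1 or 4, nor WT replicate 4 from replicates 1 or 3. The libraries were kept apart, since the labels and methods give them as separate samples, and results that changed when Nsun2-/- replicates 1 and 2 were averaged into 1 library are stated.

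The tRNAs that the comparisons turned on are shown by fragments listed for them in the supplementary tables of the study, with the anticodon in capitals where the fragment holds it. These are read sequences, so they can carry sequencing errors and bases misread at modified positions. Fragments ending in cca carry the triplet that is added to the 3′ end of mature tRNAs. The first pair belongs to the amino acid sums that rose, the next 4 to glycine, the following pair to the alanine copies, and the last 3 to valine, proline and isoleucine.
chr7.trna86-SeC(e)TCA: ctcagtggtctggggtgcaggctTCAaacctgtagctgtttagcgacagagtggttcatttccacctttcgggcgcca
chr2.trna1432-HisGTG: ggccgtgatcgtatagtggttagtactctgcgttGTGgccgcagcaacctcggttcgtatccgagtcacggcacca
chr3.trna752-GlyCCC: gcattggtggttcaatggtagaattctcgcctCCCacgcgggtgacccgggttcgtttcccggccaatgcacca
chr1.trna699-GlyGCC: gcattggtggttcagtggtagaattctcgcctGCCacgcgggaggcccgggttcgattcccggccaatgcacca
chr1.trna1392-GlyGCC: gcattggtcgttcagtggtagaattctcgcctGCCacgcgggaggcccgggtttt
chr3.trna746-GlyTCC: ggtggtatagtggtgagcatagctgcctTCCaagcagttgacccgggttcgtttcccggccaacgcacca
chrX.trna375-AlaTGC: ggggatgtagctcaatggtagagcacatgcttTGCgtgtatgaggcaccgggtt
chr5.trna1317-AlaTGC: ggggatgtagctcagtggtagagcgca
chr19.trna109-ValTAC: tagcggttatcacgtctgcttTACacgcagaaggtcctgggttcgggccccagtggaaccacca
chr14.trna705-ProAGG: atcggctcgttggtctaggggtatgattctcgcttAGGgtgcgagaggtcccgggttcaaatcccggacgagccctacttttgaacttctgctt
chr17.trna516-IleTAT: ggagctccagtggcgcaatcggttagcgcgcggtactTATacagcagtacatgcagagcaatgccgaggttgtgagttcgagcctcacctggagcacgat

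Counted from 1 at the 5′ end, the GlyCCC and GlyGCC fragments of 74 bases differed at 5 positions (A15G, C33G, T43A, A45G and T56A, the GlyCCC base first), of which C33G is the first base of the anticodon. The fragments of both GlyGCC copies differed at 3 of 55 positions (G9C, C54T and G55T, chr1.trna699 first), and those of both AlaTGC copies at 2 of 27 positions (A15G and A25G, chrX.trna375 first). The ValTAC fragment was listed under all 3 ValTAC copies, the HisGTG fragment under 3 HisGTG copies and the GlyTCC fragment under all 7 GlyTCC copies, so these stretches do not by themselves tell the copies apart. Such listings conflict with the stated rule of a single place, and how these reads entered the counts of a copy is not given in the sources used here. The ProAGG and IleTAT fragments, of 94 and 100 bases, are longer than their genes of 72 and 93 bases.

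The first comparison asked whether the loss of NSUN2 changed how the tRNA pool was divided among amino acids. Of the 21 amino acid labels with enough counts for a test, 2 rose in Nsun2-/- brains (9.52% of those tested) and 0 fell (0%) at an adjusted p below 0.05 (edgeR quasi-likelihood test). At an unadjusted p below 0.05, 2 more had a log2 ratio below 0, which makes 4 of 21 or 19%, and DESeq2 called 2 higher and 0 lower. Those that rose were SeC(e), the label of a selenocysteine tRNA gene, whose tRNA inserts selenocysteine into selenoproteins, and histidine. The other 19 labels did not pass.

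SeC(e) rests on a single gene, chr7.trna86-SeC(e)TCA, at chr7:19886593-19886678 on the plus strand (mm9), the gene with the most counts of all 433. It took 6.82%, 7.27%, 6.33% and 6.93% of all tRNA counts in the Nsun2-/- libraries and 5.53%, 5.44%, 5.44% and 4.83% in the WT libraries. All 4 Nsun2-/- values lay above all 4 WT values. In counts, the gene had 1242 in the Nsun2-/- and 1196 in the WT libraries together, out of totals of 18202 and 22564. Whether the lower depth of the Nsun2-/- libraries bears on such shares was not tested. The log2 ratio was 0.39 (SE 0.07, adjusted p = 7.56e-05, edgeR). At E13.5 it took 6.87% and 8.43% of the counts in the Nsun2-/- libraries and 6.2% (95% Wilson interval 5.65% to 6.79%, counting error only) in the WT library.

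Histidine tRNAs took 6.95%, 7.27%, 7.06% and 6.63% of the counts in the Nsun2-/- libraries and 6.03%, 5.16%, 5.73% and 6.06% in the WT libraries. The groups did not overlap here either, and the log2 ratio was 0.31 (SE 0.07, adjusted p = 0.00105, edgeR). Almost all of these counts carried the anticodon GTG, with 99.7% ± 0.355 of histidine counts in Nsun2-/- and 99.5% ± 0.321 in WT libraries (SD, n = 4 each). The histidine sum kept its call in 8 of 9 other settings and without each library. Tested among the 45 isoacceptors, however, HisGTG was called in the main analysis (adjusted p = 0.0112, edgeR) and lost its call under several alternatives. These were DESeq2, upper-quartile factors, the replicate number as a block, and leaving out Nsun2-/- replicate 1 or 2. Among the HisGTG copies no change of share passed the test. The leading copy, chr2.trna1432-HisGTG, held 47.6% of the pooled HisGTG counts in each genotype, with 604 counts in Nsun2-/- and 614 in WT libraries. Of the 6 copies tested, chr3.trna747-HisGTG had the smallest p, at 5.25% ± 1.36 of HisGTG counts in Nsun2-/- and 8.55% ± 2.29 in WT libraries (SD, n = 4 each, adjusted p = 0.0788, edgeR).

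The sums of serine, glycine and leucine were next in order of p, with log2 ratios of -0.16 (SE 0.07, adjusted p = 0.183), -0.14 (SE 0.07, adjusted p = 0.183) and -0.13 (SE 0.07, adjusted p = 0.258). None of them passed the test. The share of leucine nevertheless lay between 4.84% and 5.34% in the Nsun2-/- and between 5.37% and 5.7% in the WT libraries, without overlap, as was the case for 14.3% of the amino acids tested. Shares of serine were 5.69% ± 0.379 and 6.49% ± 0.27, and those of glycine 8.13% ± 0.607 and 9.1% ± 0.71, in Nsun2-/- and WT libraries (SD, n = 4 each), and both overlapped. Cysteine, proline, alanine, glutamate and methionine completed the 10 smallest p-values, with log2 ratios of -0.3, 0.16, 0.17, -0.11 and 0.09. Their adjusted p-values lay between 0.258 and 0.335. Arginine, whose tRNAs held the largest share of any amino acid, took 14.4% of the counts in Nsun2-/- and 14.5% in WT libraries.

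**Figure D1:**
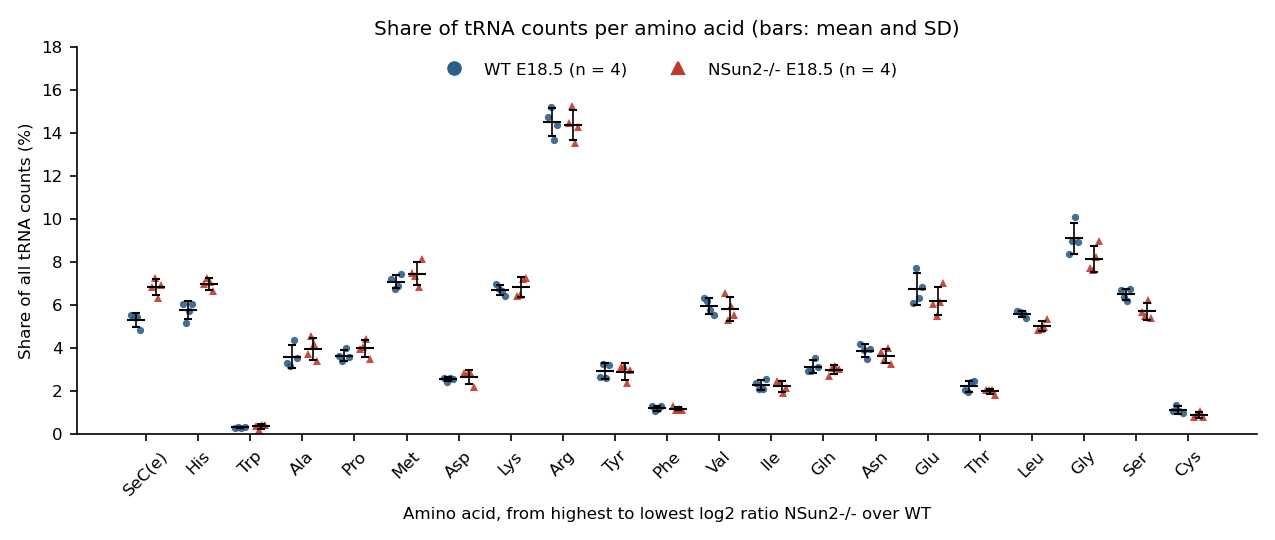
Share of all tRNA counts per amino acid (percent, vertical axis) in each E18.5 library, with the 21 tested amino acid labels from the highest to the lowest log2 ratio of Nsun2-/- over WT along the horizontal axis. Circles are WT and triangles Nsun2-/- libraries, and bars give the mean and SD of 4 libraries. SeC(e) and His are separated upwards in Nsun2-/-, while Arg is the largest share at 14.4% and 14.5%.

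Normalization mattered for this comparison. With upper-quartile factors in place of TMM factors, the median log2 ratio of all amino acids moved from 0.00 to -0.13, histidine lost its call (log2 ratio 0.18, adjusted p = 0.129), and serine, glycine, leucine and glutamate were called lower. SeC(e) remained called higher among the 21 amino acids (log2 ratio 0.27, adjusted p = 0.0248), but the same gene lost its call among the 45 isoacceptors with these factors. The shares given above do not use these factors. They scale by the library total alone, which is itself a choice of normalization.

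The tRNAs were also grouped by the first base of the anticodon and by the side chain of their amino acid, as a description without a test. tRNAs with T as the first anticodon base took 27% ± 0.833 of the counts in Nsun2-/- and 25.2% ± 0.8285 in WT libraries, and those with G took 26.3% ± 0.644 and 27.6% ± 0.496. Amino acids with basic side chains took 28.2% ± 0.531 and 26.9% ± 0.691, and those with polar side chains 15.2% ± 0.937 and 16.8% ± 0.313 (SD, n = 4 each). In these 4 groups, and for selenocysteine, the genotypes did not overlap, which makes 5 of 13 groups or 38.5%. The groups are not independent of the single tRNAs, since SeC(e) counts among the tRNAs with T and histidine among the basic amino acids. The tRNAs with G include HisGTG, whose share of all counts was higher in Nsun2-/- libraries (difference 1.24 percentage points). They also include GlyGCC, whose share was lower (difference -1.62). Among the 15 tested isoacceptors with T, 1 rose, 1 fell and 8 had a log2 ratio above 0, with a median of 0.05. Over all 45 isoacceptors tested, 3 rose (6.67%) and 2 fell (4.44%), or 11.1% in all, 15.6% were without overlap, and the median was 0.00. The isoacceptors called were SeC(e)TCA, GlyCCC and HisGTG, which rose, and GlyGCC and ValTAC, which fell. These counts moved with the processing, to 1 higher and 5 lower with upper-quartile factors and to 2 higher and 0 lower with DESeq2. With Nsun2-/- replicates 1 and 2 averaged they were 3 higher and 0 lower, and GlyGCC and ValTAC lost their calls. Without WT replicate 3 there were 5 higher and 0 lower, without WT replicate 4 there were 4 higher and 0 lower, and without Nsun2-/- replicate 1 or 2 there were 2 higher and 0 lower. The 11 tested isoacceptors of polar amino acids had 0 called, 2 with a log2 ratio above 0 and a median of -0.07, and the 8 of basic amino acids had 1 that rose, 5 above 0 and a median of 0.03. Leucine, serine and selenocysteine tRNAs, which have a long variable arm, held 17.5% ± 0.142 and 17.4% ± 0.429, and overlapped.

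The second comparison asked whether the anticodons of an amino acid shifted among themselves. Each anticodon was set against the rest of its amino acid within the same library, so that neither the library size nor the level of the amino acid enters. Of 33 anticodons tested in 12 amino acids, 3 took a larger (9.09%) and 4 a smaller share (12.1%) in Nsun2-/- brains, or 21.2% of those tested. At an unadjusted p below 0.05 there were 9 (27.3%), and DESeq2 called 2, GlyCCC and GlyGCC. These 7 lie in 4 amino acids, glycine, valine, proline and isoleucine. As the shares within an amino acid sum to 100%, a rise and a fall in the same amino acid are not separate observations.

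Glycine, the smallest amino acid, had the smallest p-values. GlyCCC, which reads GGG codons, made up 28.2%, 24.8%, 17.4% and 19.8% of glycine counts in the Nsun2-/- libraries and 13.3%, 14.4%, 13.1% and 10.8% in the WT libraries. Every Nsun2-/- library lay above every WT library, with log2 odds ratio 0.96 (SE 0.14, adjusted p = 5.52e-09, edgeR). The size of this p depended on the method, and across 8 other settings of edgeR and DESeq2 the adjusted p reached 0.00144. The SD of the shares was 4.86 in Nsun2-/- and 1.54 in WT libraries. GlyGCC, which reads the GGC and GGT codons, made up 64.5%, 67.1%, 75.1% and 71% in the Nsun2-/- and 81.2%, 80.2%, 78.9% and 79.8% in the WT libraries. It lay lower in every Nsun2-/- library, with log2 odds ratio -0.80 (SE 0.12, adjusted p = 3.39e-08, edgeR). For GlyCCC and GlyGCC alike, an exact permutation test of the shares gave p = 0.0286, the smallest it allows. GlyTCC, at 6.89% ± 1.15 in Nsun2-/- and 5.38% ± 1.7 in WT libraries, did not pass (log2 odds ratio 0.37, adjusted p = 0.246).

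Within glycine, a pair of genes differed without overlap. chr3.trna752-GlyCCC (chr3:96227956-96228026, minus strand), which held 90.1% of all GlyCCC counts, took 1.67% ± 0.338 of all tRNA counts in Nsun2-/- and 1.03% ± 0.127 in WT libraries. chr1.trna699-GlyGCC (chr1:172975116-172975186, plus strand) took 2.91% ± 0.386 and 4.32% ± 0.416 (SD, n = 4 each). The other GlyGCC copies together took 2.75% ± 0.328 in Nsun2-/- and 2.96% ± 0.0842 in WT libraries, and the other GlyCCC copies 0.145% ± 0.0601 and 0.141% ± 0.0679, and both overlapped. These gene values were drawn out after the shift of the anticodons had been seen and are a description.

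In valine, the minor anticodon lost share. ValTAC made up 8.94%, 10.4%, 9.33% and 9.95% of valine counts in the Nsun2-/- libraries and 12.4%, 15.9%, 12.7% and 14.7% in the WT libraries. The groups did not overlap, and the log2 odds ratio was -0.60 (SE 0.18, adjusted p = 0.0122, edgeR). Without WT replicate 2 the adjusted p was 0.0531, and with DESeq2 it was 0.107. ValAAC, at 31.1% ± 2.14 against 28.2% ± 1.96, and ValCAC, at 59.2% ± 2.77 against 57.9% ± 2.2 (SD, n = 4 each), took the rest.

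In proline, ProTGG and ProAGG moved against each other. ProTGG made up 34.9%, 36.8%, 38.6% and 42.1% of proline counts in the Nsun2-/- libraries and 53.8%, 53.8%, 47.9% and 40.3% in the WT libraries, with log2 odds ratio -0.64 (SE 0.21, adjusted p = 0.019, edgeR). ProAGG, whose first anticodon base is read as inosine and pairs with several codons, made up 54.9%, 53.7%, 49.8% and 42.9% and 36.4%, 28.2%, 43.8% and 48.8%, with log2 odds ratio 0.65 (SE 0.22, adjusted p = 0.019, edgeR). The genotypes overlapped for both, through WT replicate 4 and Nsun2-/- replicate 4. Both calls were lost without Nsun2-/- replicate 2 (adjusted p = 0.104 for ProTGG and 0.12 for ProAGG), Nsun2-/- replicate 3 (0.0663 for each), WT replicate 1 (0.148 and 0.15) or WT replicate 2 (0.0531 and 0.159). They were also lost with DESeq2 (0.0655 and 0.107).

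In isoleucine, the shift was between IleAAT and IleTAT. IleAAT made up 36.7%, 42.9%, 38.9% and 40% of isoleucine counts in the Nsun2-/- libraries and 50%, 45%, 47.4% and 54% in the WT libraries, with log2 odds ratio -0.57 (SE 0.19, adjusted p = 0.019, edgeR). IleTAT, which reads the ATA codon, made up 62.4%, 57.1%, 61.1% and 60% and 50%, 55%, 52.6% and 46%, with log2 odds ratio 0.55 (SE 0.19, adjusted p = 0.0202, edgeR). The genotypes did not overlap for either. These shares rest on 34 to 81 IleAAT and 51 to 69 IleTAT counts per library. The IleAAT call was lost without Nsun2-/- replicate 1 (adjusted p = 0.116), Nsun2-/- replicate 3 (0.0833), WT replicate 1 (0.0977), WT replicate 3 (0.054) or WT replicate 4 (0.108). The IleTAT call was lost without Nsun2-/- replicate 3 (0.0894), WT replicate 1 (0.0977), WT replicate 3 (0.0553) or WT replicate 4 (0.116), and both were lost with DESeq2 (0.136 for each). When Nsun2-/- replicates 1 and 2 were averaged, IleTAT was the mirror image of IleAAT and was not tested, and IleAAT had an adjusted p of 0.0499.

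**Figure D2:**
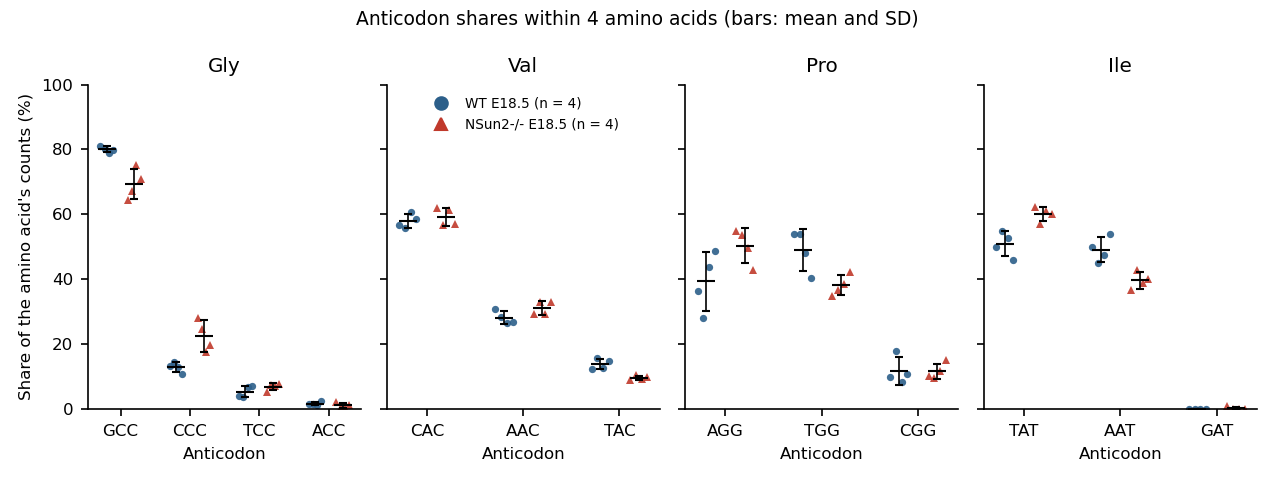
Share of each anticodon in the counts of its amino acid (percent, vertical axis) for glycine, valine, proline and isoleucine in each E18.5 library. Circles are WT and triangles Nsun2-/- libraries, and bars give the mean and SD of 4 libraries. CCC gained and GCC lost share in glycine without overlap, while the AGG and TGG points of proline overlap between genotypes.

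The remaining 26 tested anticodons did not pass. Those with the next smallest p were ArgTCT at 24.1% ± 1.69 of arginine counts in Nsun2-/- and 19.8% ± 2.8 in WT libraries (log2 odds ratio 0.36, SE 0.17, adjusted p = 0.125), and LeuTAA at 31% ± 3.9 and 26.6% ± 1.82 of leucine counts (0.31, SE 0.15, adjusted p = 0.164; SD, n = 4 each). ArgTCT, which reads AGA and AGG codons, was without overlap, as were 18.2% of the anticodons tested. Lysine, glutamine and glutamate each have a pair of anticodons, which start with C or T, and the shares of both overlapped between genotypes. LysCTT made up 37.4% ± 1.59 and 37.8% ± 1.71 of lysine counts, and GluCTC 90.7% ± 0.648 and 89.7% ± 2.11 of glutamate counts.

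The third comparison asked whether gene copies of the same isoacceptor kept their shares. Of the 305 genes with counts, 100 copies in 38 isoacceptors had enough counts, and so did the rest of their isoacceptor, and 2 of these took a larger (2%) and 3 a smaller share (3%) in Nsun2-/- brains, or 5% of those tested. At an unadjusted p below 0.05 there were 15 (15%). The 5 copies belong to AlaTGC, GlyGCC and ValTAC. The log2 odds ratios of all 100 copies had a median of -0.03, and the middle 50 of them lay between -0.18 and 0.21. For 10% of the copies the genotypes did not overlap.

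In AlaTGC, the share of a copy on chromosome 5 fell and that of a copy on chromosome X rose. A smaller share of one copy raises the share of the others by itself. chr5.trna1317-AlaTGC (chr5:125884620-125884691, minus strand) made up 19.7%, 16.3%, 16.3% and 21.7% of AlaTGC counts in the Nsun2-/- libraries and 36.2%, 48.8%, 26.5% and 35.8% in the WT libraries. The log2 odds ratio was -1.36 (SE 0.28, adjusted p = 0.0114, edgeR). chrX.trna375-AlaTGC (chrX:133124904-133124975, plus strand) made up 57.7%, 64.3%, 62.5% and 63.8% and 51.2%, 38.4%, 52% and 45.7%, with log2 odds ratio 0.895 (SE 0.22, adjusted p = 0.0162, edgeR). Neither overlapped between genotypes. In counts, the chromosome 5 copy had 62 in the Nsun2-/- and 127 in the WT libraries together, and the chromosome X copy 213 and 164. The chromosome 5 call was kept without any single library and by DESeq2. The chromosome X call was lost without Nsun2-/- replicate 2 (adjusted p = 0.0772), Nsun2-/- replicate 3 (0.0623), WT replicate 2 (0.0572) or WT replicate 4 (0.0517), and by DESeq2 (0.0971). The other 3 AlaTGC copies with counts had too few for a test.

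In GlyGCC, the leading copy took a smaller share and a second copy on the same chromosome a larger one. chr1.trna699-GlyGCC made up 50%, 52.3%, 51% and 52.2% of GlyGCC counts in the Nsun2-/- libraries and 58.3%, 59%, 61.8% and 58.2% in the WT libraries, with log2 odds ratio -0.47 (SE 0.11, adjusted p = 0.0162, edgeR). chr1.trna1392-GlyGCC (chr1:74863321-74863391, minus strand) made up 15.8%, 12.9%, 12.6% and 15.7% and 9.81%, 8.87%, 5.52% and 10.2%, with log2 odds ratio 0.82 (SE 0.20, adjusted p = 0.0162, edgeR). Both pairs of groups were apart. The leading copy lost its call without Nsun2-/- replicate 1 (adjusted p = 0.059) or Nsun2-/- replicate 3 (0.0623), and chr1.trna1392 without Nsun2-/- replicate 1 (0.059) or WT replicate 2 (0.0572). With DESeq2 both had an adjusted p of 0.1. The 5 other tested copies, chr8.trna560, chr3.trna878, chr13.trna110, chr11.trna1819 and chr13.trna77, had log2 odds ratios of 0.42, 0.51, 0.20, -0.30 and -0.25. None of them passed, with the smallest adjusted p at 0.165 for chr8.trna560-GlyGCC.

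In ValTAC, which lost share within valine, the leading copy lost share within the isoacceptor. chr19.trna109-ValTAC (chr19:12086421-12086493, plus strand) made up 61.5%, 57.7%, 64.3% and 63.6% of ValTAC counts in the Nsun2-/- and 81%, 84.2%, 72.5% and 79.2% in the WT libraries. All Nsun2-/- values were lower, with log2 odds ratio -1.27 (SE 0.36, adjusted p = 0.0415, edgeR), on 14 to 18 counts per Nsun2-/- library. It passed without WT replicate 3, and was lost without Nsun2-/- replicates 1, 2, 3 or 4 (adjusted p = 0.109, 0.13, 0.0623 and 0.0522) and without WT replicates 1, 2 or 4 (0.0531, 0.146 and 0.0517), as well as with Nsun2-/- replicates 1 and 2 averaged (0.118) and with DESeq2 (0.1). Its 63 and 149 counts in Nsun2-/- and WT libraries together compare with 31 and 32 for chrX.trna459-ValTAC and 8 and 6 for chr19.trna110-ValTAC. The ValTAC calls as anticodon, isoacceptor sum and copy thus share most of their counts and are not separate observations. The calls of GlyGCC and of chr1.trna699-GlyGCC share counts in the same way.

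**Figure D3:**
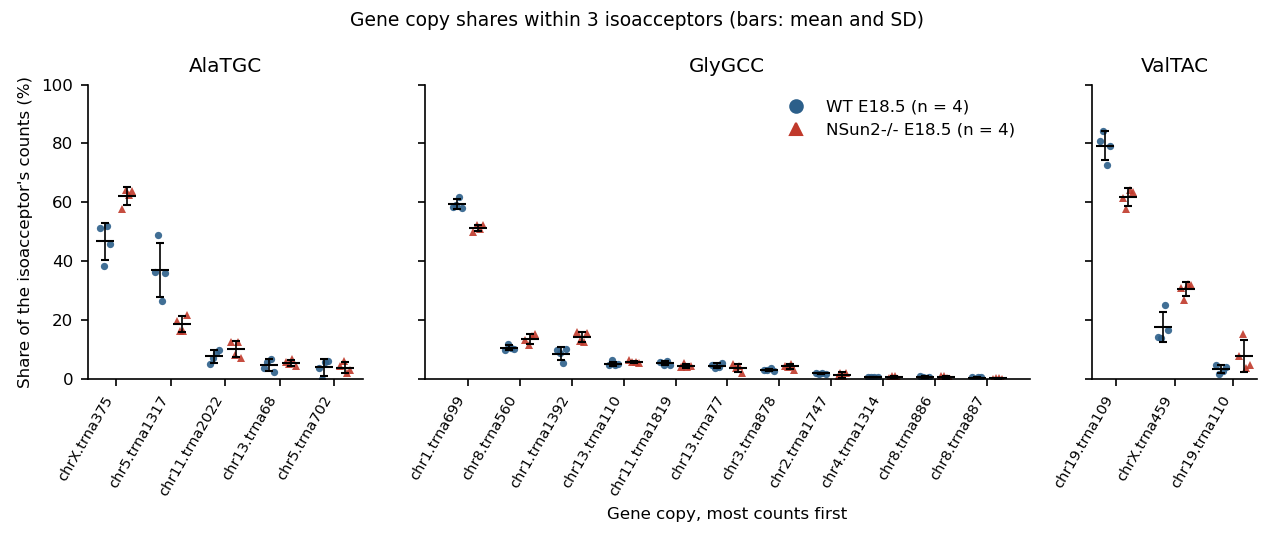
Share of each gene copy in the counts of its isoacceptor (percent, vertical axis) for AlaTGC, GlyGCC and ValTAC in each E18.5 library, with copies ordered by their total count. Circles are WT and triangles Nsun2-/- libraries, and bars give the mean and SD of 4 libraries. The copies chr5.trna1317, chr1.trna699 and chr19.trna109 lie lower, and chrX.trna375 and chr1.trna1392 higher, in all Nsun2-/- libraries.

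The next 7 copies by p did not pass. chr13.trna953-ArgACG made up 2.85% ± 1.12 of ArgACG counts in Nsun2-/- and 5.85% ± 0.86 in WT libraries (log2 odds ratio -1.10, SE 0.32, adjusted p = 0.051), without overlap. chr16.trna50-ThrCGT made up 75.7% ± 5.25 and 58.7% ± 7.82 of ThrCGT counts (log2 odds ratio 1.035, SE 0.32, adjusted p = 0.0601; SD, n = 4 each), also without overlap. Of the other 5, chr11.trna1818-ArgTCT, chr8.trna560-GlyGCC and chr1.trna1184-LysTTT had log2 odds ratios of 0.61, 0.42 and 0.38, and chr3.trna747-HisGTG and chr10.trna856-AspGTC of -0.75 and -0.45. Their adjusted p-values lay between 0.0756 and 0.183.

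**Figure D4:**
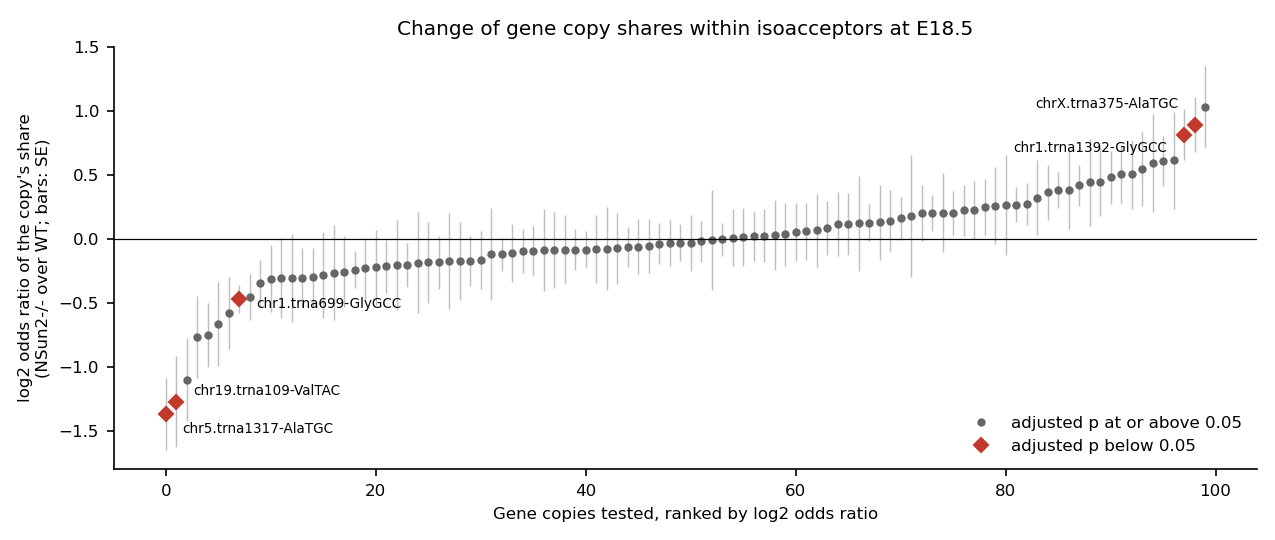
Log2 odds ratio of each copy's share within its isoacceptor, Nsun2-/- over WT at E18.5 (vertical axis, bars are SE), for the 100 copies tested, ranked along the horizontal axis. Diamonds mark the 5 copies with an adjusted p below 0.05, at -1.36, -1.27, -0.47, 0.82 and 0.89.

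Among reads kept for a single place in the genome, most isoacceptors leaned on a few copies in both genotypes. Identical copies lost such reads, so a leading copy need not be the most used one. In the 40 isoacceptors with at least 200 counts and several copies with counts, the leading copy held a median of 53.25% of the counts, from 25.5% in GlnCTG to 95.2% in GluCTC. It held over 50% in 21 of them. The same copy led in both genotypes in 34 of the 40. The leader differed in GlnCTG, ArgTCT, SerGCT, GluTTC, LysTTT and MetCAT, but no copy of these had a called change of share. In LysTTT the lead was close, with 211 and 213 counts for chr1.trna485 and chr13.trna1000 in Nsun2-/- and 262 and 260 in WT libraries. In ArgTCT, chr11.trna1818-ArgTCT held 30.7% of the pooled counts in Nsun2-/- and 22.5% in WT libraries, while chr19.trna637-ArgTCT held 25.3% and 25.7%. The 5 genes with the most counts, which together held 21.2% of them, were the SeC(e) gene, chr10.trna81-GluCTC, chr1.trna699-GlyGCC, chr2.trna1432-HisGTG and chr14.trna209-ArgACG. Of all counts, chr10.trna81-GluCTC took 5.32% ± 0.571 in Nsun2-/- and 5.75% ± 0.571 in WT libraries, and chr14.trna209-ArgACG 3.02% ± 0.236 and 2.88% ± 0.403, and both overlapped. chr2.trna1432-HisGTG took 3.32% ± 0.209 and 2.72% ± 0.32 (SD, n = 4 each), without overlap.

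The last comparison was of the breadth of the pool. After thinning each library to 4011 counts, the lowest total, 250.1 ± 7.29 tRNA genes were expected to have a count in Nsun2-/- and 251.7 ± 4.12 in WT libraries (SD, n = 4 each). The ranges, 243.3 to 259.8 and 246.2 to 256.1, overlapped, and an exact two-sided permutation test gave p = 0.6857, where 4 against 4 libraries cannot go below 0.0286. Without thinning the numbers were 254.8 ± 10.4 and 264 ± 2.45. Of the 305 genes with counts, 286 had them in both genotypes. The 8 genes with counts in Nsun2-/- alone held 12 counts together, at most 4 for chrX.trna159-AlaAGC, and the 11 with counts in WT alone held 15, at most 2 each, as for chr13.trna102-AlaAGC, chr7.trna1276-LysTTT, chr17.trna998-ProTGG and chr13.trna79-SupTTA. Since a count of 0 allows up to 3 counts, the absence of these genes from a genotype was not detectable at this depth.

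The effective number of genes, the number of equally used genes that would give the same Shannon entropy, was 107.6, 106.2, 111 and 98.3 in the Nsun2-/- libraries and 108.9, 107.1, 112.2 and 113.7 in the WT libraries. The groups overlapped, with means of 105.8 ± 5.36 and 110.5 ± 3.03 (exact permutation test, p = 0.1714). Evenness, on a scale where 1 means equal use, was 0.844 ± 0.0077 and 0.851 ± 0.0038 (exact permutation test, p = 0.1429). The 10 most used genes of each library held 31.7% ± 1.39 and 30.9% ± 0.404 of the counts (exact permutation test, p = 0.4), and 26 genes held 50% of the pooled counts.

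The effective number of isoacceptors was 33.5, 33.6, 33.7 and 33 in the Nsun2-/- and 33.9, 34, 34.6 and 34 in the WT libraries. All Nsun2-/- values were lower, by 0.70 isoacceptors on average, with the smallest p that the exact permutation test allows (p = 0.0286). Adjusted over the 9 measures of the pool it was 0.2571 and did not pass. The effective number of amino acids was 16.98 ± 0.223 and 17.03 ± 0.17 (exact permutation test, p = 0.7714).

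**Figure D5:**
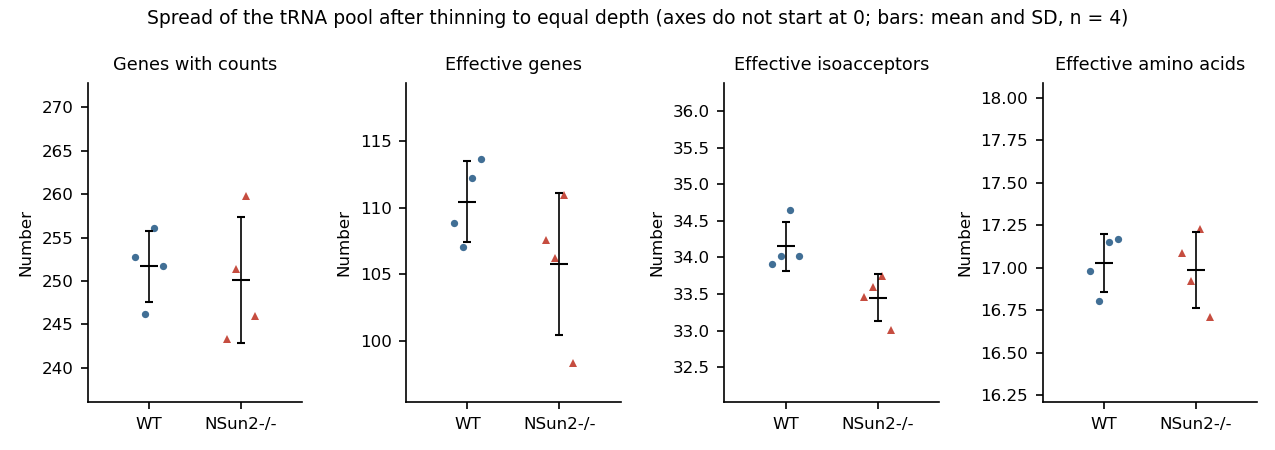
Breadth of the tRNA pool in each E18.5 library after thinning to 4011 counts, as the number of genes with counts and the effective numbers of genes, isoacceptors and amino acids (vertical axes, which do not start at 0). Circles are WT and triangles Nsun2-/- libraries, and bars give the mean and SD of 4 libraries. Only the effective number of isoacceptors, 33 to 33.7 against 33.9 to 34.6, does not overlap.

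The E13.5 libraries, with a single WT sample, place these shares as a description, and no test was made within E13.5. At E13.5 GlyCCC made up 36.7% and 33.9% of glycine counts in the Nsun2-/- libraries and 35.1% (95% Wilson interval 31.8% to 38.6%) in the WT library, so that all 3 values lay above all 8 at E18.5 and the WT value lay between the Nsun2-/- values. ValTAC stood at 11%, 10.9% and 11.3% (8.44% to 15%) of valine counts in the same order. ProTGG stood at 42.9%, 41.8% and 39.5% (34.3% to 45.1%) and ProAGG at 43.8%, 47.3% and 49.2% (43.7% to 54.7%) of proline counts, the opposite order of genotypes to the E18.5 means. IleAAT stood at 54.9%, 39.7% and 51% (43% to 59%) of isoleucine counts, with the WT value between those of Nsun2-/-. Histidine tRNAs took 9.4% and 8.52% of all counts in the Nsun2-/- libraries and 7.65% (7.04% to 8.3%) in the WT library. chr5.trna1317-AlaTGC stood at 19.7%, 25.3% and 17.2% (11.5% to 24.9%) of AlaTGC counts, the opposite order of genotypes to E18.5. For chr19.trna109-ValTAC the values were 65.4%, 76.7% and 75.6% (60.7% to 86.2%) of ValTAC counts, with the WT value between those of Nsun2-/-. chrX.trna375-AlaTGC stood at 56.6%, 53.5% and 55.7% (46.9% to 64.2%) of AlaTGC counts, also with the WT value between those of Nsun2-/-. Of GlyGCC counts, chr1.trna699-GlyGCC held 38%, 48.1% and 49.9% (45.3% to 54.5%) and chr1.trna1392-GlyGCC 24.3%, 16.9% and 15.8% (12.7% to 19.5%). Both WT values lay on the same side of the Nsun2-/- values as at E18.5. For each copy the value of Nsun2-/- replicate 2 nevertheless lay within the WT interval. The genotype effect on amino acid sums was tested for a difference between stages in a fit of all 11 libraries, in which the lone E13.5 WT library is assumed to vary like the other groups. It passed for 0 of 21 amino acids, or 0%, with edgeR and for 0 with DESeq2, while 4 (19%) had an unadjusted p below 0.05 with edgeR and 2 with DESeq2. The smallest were glutamate (log2 difference -0.44, SE 0.16, adjusted p = 0.105) and proline (0.47, SE 0.18, adjusted p = 0.105). The 0 rests on single libraries. Leaving out Nsun2-/- E13.5 replicate 1 gave 3 calls (glutamate, phenylalanine and proline), and leaving out Nsun2-/- E18.5 replicate 4 or WT E18.5 replicate 3 gave 1 (proline). The difference between stages was not tested for anticodon and copy shares.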

How the data were processed

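Genotype and stage in the labels placed the 11 libraries in groups. For each, the authors deposited the raw count of reads per tRNA gene. Per the methods and file headers, they removed adapters, kept reads that bowtie placed at a single locus, clipped CCA from unplaced reads for a second alignment, and ran featureCounts 1.4.4 with no strand option. Whether identical reads were merged is not given in the sources used here. Each counted interval is the tRNA with 20 nt on either side, and positions given are those of the tRNA. The headers name an mm9 tRNA annotation and the methods GRCm38/mm10. Since 3 of the 433 positions match GRCm38 tRNA genes, positions are given as mm9. Totals at E18.5 were 4011 to 5924 counts, and 3 counts are 0.051% to 0.075% of a library.

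Genes were summed by the amino acid and anticodon in their names. Amino acid sums were tested with edgeR 4.0.16 (R 4.3.3), using the quasi-likelihood test with TMM factors from the gene table, a filterByExpr minimum of 10 counts, and p-values adjusted over all features tested (Benjamini-Hochberg). Shares were tested with edgeR on the counts of a feature and of the rest of its set, with library as a term, both passing the filter. Where only 2 members had counts, the first in alphabetical order was tested. SE is the log2 value divided by the square root of F. Numbers of genes and entropies after thinning were computed without random draws and compared by exact permutation tests (scipy 1.17.1). Features are named where they passed an adjusted p of 0.05, and otherwise the 10 amino acids, 10 anticodons and 12 copies of smallest p with the other tested copies of called isoacceptors, the 5 genes with most counts, and up to 5 genes seen in 1 genotype only. Other names serve as examples. The members and lists were chosen with earlier results of these data known. The main edgeR fits of amino acid sums, anticodon shares and copy shares were tested on simulated counts with the same spread for every gene. Such counts cannot show how the fits behave for features with a larger spread of their own. The other fits were not tested so. The alternatives included DESeq2 1.42.0, other normalizations and filters, and leaving out each library.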

Additional observations from a re-analysis of the deposited data

Results flagged for a closer look

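Among 94 groups of 4 libraries checked for a library far from the others, 3 held one, where chance gives about 1 in 20 groups. The lowest WT share of SeC(e), 4.83% in replicate 4, lay apart from 5.44%, 5.44% and 5.53%. The lowest WT share of ArgTCT within arginine, 15.6% in replicate 1, lay apart from 21%, 21.2% and 21.4%, all of which were below the lowest Nsun2-/- share of 22%. The highest WT effective number of isoacceptors, 34.6 in replicate 3, lay apart from 33.9, 34 and 34.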

How the results depend on the processing

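Of the amino acids, 2 were called higher with library size only, with TMM factors from the amino acid table, with DESeq2, with all 11 libraries in 1 fit and without genes of low count, and 5 (1 higher, 4 lower) with upper-quartile factors. Leaving out 1 library gave 2 to 3 calls. Of the anticodon shares, 7 were called in the main analysis, 2 with DESeq2 and 1 (GlyCCC) with diffSpliceDGE of edgeR, and 3 to 7 when a library was left out. GlyCCC was called under all 8 other settings and without each library, and GlyGCC under 7 of 8, the exception being diffSpliceDGE (log2 value -0.21, adjusted p = 0.237). Of the copy shares, 5 were called in the main analysis, 1 (chr5.trna1317-AlaTGC) with DESeq2, 2 with diffSpliceDGE, 2 with all 11 libraries in 1 fit, and 2 to 7 when a library was left out. Without a filter 4 of 299 copies were called. Of the isoacceptor sums, 5 were called in the main analysis, 6 with upper-quartile factors or all 11 libraries in 1 fit, 2 with DESeq2, 3 with Nsun2-/- replicates 1 and 2 averaged, and 2 to 6 when a library was left out. The difference between stages gave 0 to 3 calls when a library was left out. The effective number of isoacceptors in place of genes differed by -0.70 (exact permutation test, p = 0.0286). No named feature with a call changed direction under any alternative run. The cause of these differences was not tested. Counts of 14 to 18 for a copy limit what a share can show.

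The replicate numbers do not pair the libraries in the labels. Same-numbered Nsun2-/- and WT libraries deviated from their group means with correlations of 0.245, 0.096, 0.174 and -0.123. Of the 8 libraries, each matched against the 4 of the other genotype, 5 correlated best with their own number. Whether this is more than chance gives was not tested. With the replicate number as a block, 2 amino acids, 3 anticodon shares (GlyCCC, GlyGCC and ValTAC) and 5 copy shares were called. Of these copies 4 are shared with the main analysis, while chr19.trna109-ValTAC lost its call (adjusted p = 0.0897) and chr14.trna705-ProAGG gained one, and 3 isoacceptor sums were called in place of 5, without HisGTG and ValTAC.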
